A study of Oryza sativa with 30 samples.

Results

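Heat shock genes were followed across shoot apices of 2 cultivars of rice (Oryza sativa) as day length was shortened. The 7 genes were chosen with earlier results of these data known. They were taken as a named family, with no threshold on their counts, out of 55986 loci in the files. They are the heat stress factor A2c (HSFA2C, LOC_Os10g28340), the disaggregase HSP101 (LOC_Os05g44340) and 5 small heat shock protein genes, HSP16.9A (LOC_Os01g04370), HSP16.9B (LOC_Os01g04380), LOC_Os03g15960, LOC_Os03g16020 and LOC_Os03g16030. All 7 passed the filter on low counts, which kept 22839 loci for testing. HSP16.9B passed it only through its T65 day 12 libraries. Plants of Nipponbare (NB) and Taichung 65 (T65), both without any heat treatment in the labels, were 6 weeks old when they were moved. The chambers were kept at 28 °C in the light and 24 °C in the dark. Day 0 is the long day before the move (16 h light, 8 h dark), and days 4, 8 and 12 count the short days that followed (10 h light, 14 h dark). The 30 labelled samples correspond to 23 count libraries, 3 for each cultivar and day and 2 for T65 day 12. The labels number the replicates without saying that they came from separate plants, so a p-value sets a difference against the spread between libraries, part of which may be technical.

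Heat stress factors are transcription factors that bind heat shock elements in promoters. Class A members such as HSFA2C carry an activation domain and switch on chaperone genes. HSP101 is a ring-shaped ATPase of the cytosol that pulls proteins out of aggregates and hands them to HSP70 for refolding. In rice and Arabidopsis it is needed for acquired tolerance to high temperature. Small heat shock proteins bind unfolding proteins without using ATP and keep them in a state from which HSP70 and HSP101 can recover them. HSP16.9A and HSP16.9B belong to class I, which acts in the cytosol. These genes are known for strong induction by heat, and some are also active in meristems, seeds and pollen at normal temperature.

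The apices differed by cultivar and day in these genes. On day 12, HSP101 stood at 136 ± 8.47 CPM in T65 (SD, n = 2) and at 15.3 ± 4.91 CPM in NB (SD, n = 3). CPM are counts per 1e+06 counts in genes, after TMM scaling of library sizes. Of the 7 genes, 5 were higher in T65 than in NB on day 12, where 15.7% of all genes tested were called higher and 15.0% lower. HSP16.9B is among them, though it could be tested only because of its T65 day 12 counts. Those 5 also rose from day 0 to day 12 within T65, where 2.90% of all genes were called higher. That count of 5 fell to 2, 3 and 2 when T65 day 0 replicate 1, 2 or 3 was left out. Calls over all genes, in either direction, fell from 1171 to 663, 552 and 825 in the same fits. Fewer members were also called in fits that left 1 library in a group. These include the fit of the 16 libraries with the higher share of multiply aligned reads. Without T65 day 12 replicate 1, calls over all genes rose while calls among the members fell. HSP101 was called in every fit that left out 1 library, and HSFA2C and LOC_Os03g15960 in none. In NB the genes called from day 0 to day 4 were HSP101 and LOC_Os03g15960, 2 of 7 beside 10.0% of all genes called higher and 10.2% called lower. No list of members was tested as a set, and the shares of all genes are printed for comparison only. In bulk tissue, fewer cells of a type and less RNA per cell cannot be told apart.

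Total counts in genes, in units of 1e+06, ran from 8.61 to 24.9 per library. The lowest was T65 day 12 replicate 2, and NB day 4 replicate 1 had 12.4. The 3 KNOX homeobox genes that mark the meristem (OSH1, OSH15 and OSH71) summed to 259 to 438 CPM per library. The 5 green leaf markers were also detected in every group and summed to 32.6 to 53.9 CPM on day 0 and to as much as 151 CPM later, in NB day 12. Multiply aligned reads, as a percentage of the counts in genes, came to 5.76 to 6.71% in 7 libraries and 9.59 to 10.9% in the other 16. Both kinds of library occur in 5 of the 8 groups. Of the T65 day 0 libraries, replicate 1 alone belongs to the 16.

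HSFA2C was counted in every library at moderate depth. NB stood at 42.6, 29.1 and 22.29 CPM on day 0, at 43.3, 28.6 and 35.5 on day 4, at 39.5, 31.6 and 21.2 on day 8, and at 33.2, 16.85 and 21.9 on day 12. These NB groups all overlap each other. T65 stood at 33.4, 34.8 and 23.4 CPM on day 0, at 42.0, 46.7 and 38.1 on day 4, at 35.5, 25.0 and 21.5 on day 8, and at 61.2 and 59.0 on day 12. Both T65 day 12 libraries lie above all 21 others, and T65 day 4 lies above T65 day 0 without overlap. In the order of group means, neighbours overlap from NB day 12 (24.0 CPM) up to T65 day 4 (42.3 CPM), and only T65 day 12 (60.1 CPM) is separate from the group below it.

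For HSFA2C the change from day 0 to day 12 in T65 was 0.98 ± 0.28 on the log2 scale (SE, edgeR's quasi-likelihood test, adjusted p = 0.046). That call was lost when any 1 of the 5 libraries compared was left out, with log2 values of 0.82 to 1.08 and adjusted p of 0.0753 to 0.256. In NB over the same days the log2 change was -0.39 ± 0.26 (adjusted p = 0.354). The cultivars' changes differed by 1.37 ± 0.38 (log2, interaction, adjusted p = 0.036), a call that 9 of 18 alternatives ended, 7 of them by leaving out 1 library (log2 1.08 to 1.67). Directly on day 12, T65 exceeded NB by 1.33 ± 0.28 (log2, adjusted p = 0.00145), and this held without each library in turn. At day 4 the values against day 0 were 0.18 ± 0.25 in NB (log2, adjusted p = 0.664) and 0.47 ± 0.26 in T65 (log2, adjusted p = 0.594).

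HSP101 separated the cultivars before any short day. On day 0 NB stood at 11.3, 12.6 and 8.28 CPM, and T65 at 28.9, 40.6 and 30.6 CPM. Every T65 library exceeded every NB library on that day, and the difference was 1.63 ± 0.29 on the log2 scale (adjusted p = 8.88e-04 in edgeR's quasi-likelihood test). HSP101 was the 1 member of 7 called between the cultivars on day 0, where 2.77% of all genes were called higher in T65. With the 16 libraries of the higher share of multiply aligned reads, which leave T65 day 0 with 1 library, the log2 difference was 1.44 and the call was lost (adjusted p = 0.108).

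After 4 short days HSP101 stood at 67.9, 28.3 and 32.4 CPM in NB and at 68.5, 80.6 and 56.5 CPM in T65. All 6 libraries exceeded the day 0 libraries of their own cultivar. In NB the rise was 1.97 ± 0.29 (log2, adjusted p = 1.66e-04), a 3.93-fold change. NB day 4 replicate 1 was the highest of its group, and without it the rise was 1.52 (log2, adjusted p = 7.99e-04). In T65 the log2 change was 1.05 ± 0.27 and did not pass (edgeR adjusted p = 0.208), in a comparison with 34 genes called among all those tested. The 2 changes differed by -0.93 ± 0.40 (log2, interaction, adjusted p = 0.272). With only the libraries of T65 days 0 and 4 in the model, the T65 change passed (log2 1.04, adjusted p = 0.0163).

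On day 8 HSP101 was lower than on day 4 in both cultivars, at 26.1, 13.5 and 23.5 CPM in NB and at 43.8, 33.4 and 41.2 CPM in T65. The day 8 libraries lie below those of day 4 without overlap in each cultivar. The fall in NB was called (log2 -1.02 ± 0.29, adjusted p = 0.0228), as 1 of 7 members beside 5.25% of all genes called lower. It was lost without NB day 4 replicate 1 (log2 -0.55, adjusted p = 0.19) and without NB day 8 replicate 2 (log2 -0.77, adjusted p = 0.113). In T65 the log2 difference was -0.80 ± 0.27 with an adjusted p of 0.488. Against day 0 on the log2 scale, day 8 differed by 0.95 ± 0.30 in NB (adjusted p = 0.10) and by 0.25 ± 0.28 in T65 (adjusted p = 0.847).

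By day 12 the cultivars were farther apart in HSP101 than on any other day sampled. NB stood at 11.8, 13.2 and 20.9 CPM, overlapping its own day 0, and T65 stood at 130 and 142 CPM. Both T65 libraries lie above all others in the study. The T65 rise from day 0 was 2.03 ± 0.30 (log2, adjusted p = 6.20e-04), and it held without either day 12 library, at 2.09 and 1.97. In the 16 libraries it was 2.24 and not called (adjusted p = 0.094). The NB value was 0.52 ± 0.30 (log2, adjusted p = 0.279). The difference between the 2 changes was 1.51 ± 0.42 (log2, interaction, adjusted p = 0.0357). Leaving out 1 library ended that interaction call in 7 of 11 cases. The direct difference on day 12 was 3.14 ± 0.31 (log2, adjusted p = 2.83e-07), and it passed under all 12 alternatives, between 2.80 and 3.44. Ordered by group mean, HSP101 ran through NB days 0, 12 and 8 (10.7, 15.3 and 21.0 CPM), then T65 days 0 and 8 and NB day 4 (33.4, 39.5 and 42.9 CPM), then T65 day 4 (68.5 CPM) and T65 day 12. Neighbours in this order overlap except at NB day 8 against T65 day 0 and at T65 day 4 against T65 day 12.

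**Figure D1:**
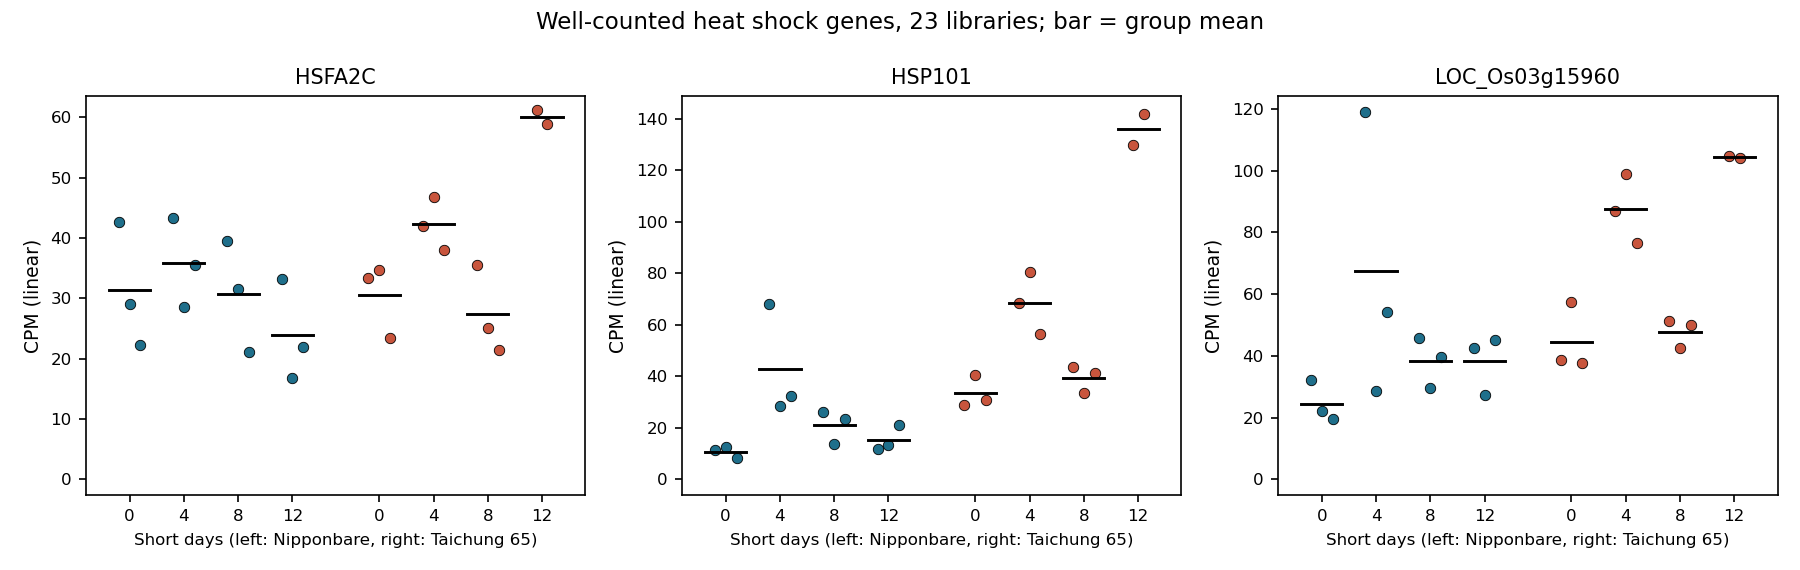
CPM of HSFA2C, HSP101 and LOC_Os03g15960 (linear axes) in each of the 23 libraries, with NB in blue and T65 in red by short days, a point per library and a bar at each group mean. For HSP101 both T65 day 12 libraries (130 and 142 CPM) stand above all others, and for LOC_Os03g15960 the highest library is NB day 4 replicate 1 (119 CPM).

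LOC_Os03g15960, a small heat shock protein gene, followed a course like that of HSP101 with smaller differences between groups. NB stood at 32.1, 22.1 and 19.5 CPM on day 0, at 119, 28.8 and 54.4 on day 4, at 45.7, 29.5 and 39.7 on day 8, and at 42.7, 27.3 and 45.04 on day 12. NB day 4 spans a wide range, from below the highest day 0 library to the highest value in the study. T65 stood at 38.7, 57.6 and 37.6 CPM on day 0, at 86.9, 99.0 and 76.5 on day 4, at 51.2, 42.5 and 49.9 on day 8, and at 105 and 104 on day 12. T65 days 4 and 12 each lie above T65 days 0 and 8 without overlap. In the order of the 8 group means, from NB day 0 (24.6 CPM) to T65 day 12, the only neighbours that do not overlap are T65 days 4 and 12.

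For LOC_Os03g15960 the rise in NB from day 0 to day 4 was 1.43 ± 0.33 (log2, edgeR adjusted p = 0.00474). Without NB day 4 replicate 1 it was 0.78 and was not called (adjusted p = 0.0603). In T65 the day 4 value was 0.98 ± 0.32 (log2, adjusted p = 0.39). The rise in T65 to day 12 was 1.24 ± 0.36 (log2, adjusted p = 0.046), and that call too was lost without any 1 of the 5 libraries (log2 1.13 to 1.46, adjusted p 0.0553 to 0.266). In NB day 12 differed from day 0 by 0.64 ± 0.33 (log2, adjusted p = 0.22). The interaction on day 12 was 0.59 ± 0.49 and did not pass (log2, adjusted p = 0.504). T65 exceeded NB on day 12 by 1.45 ± 0.36 (log2, adjusted p = 0.00427), which held without each library. On day 0 the cultivars did not overlap, and their log2 difference was 0.85 ± 0.33 (adjusted p = 0.13).

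**Figure D2:**
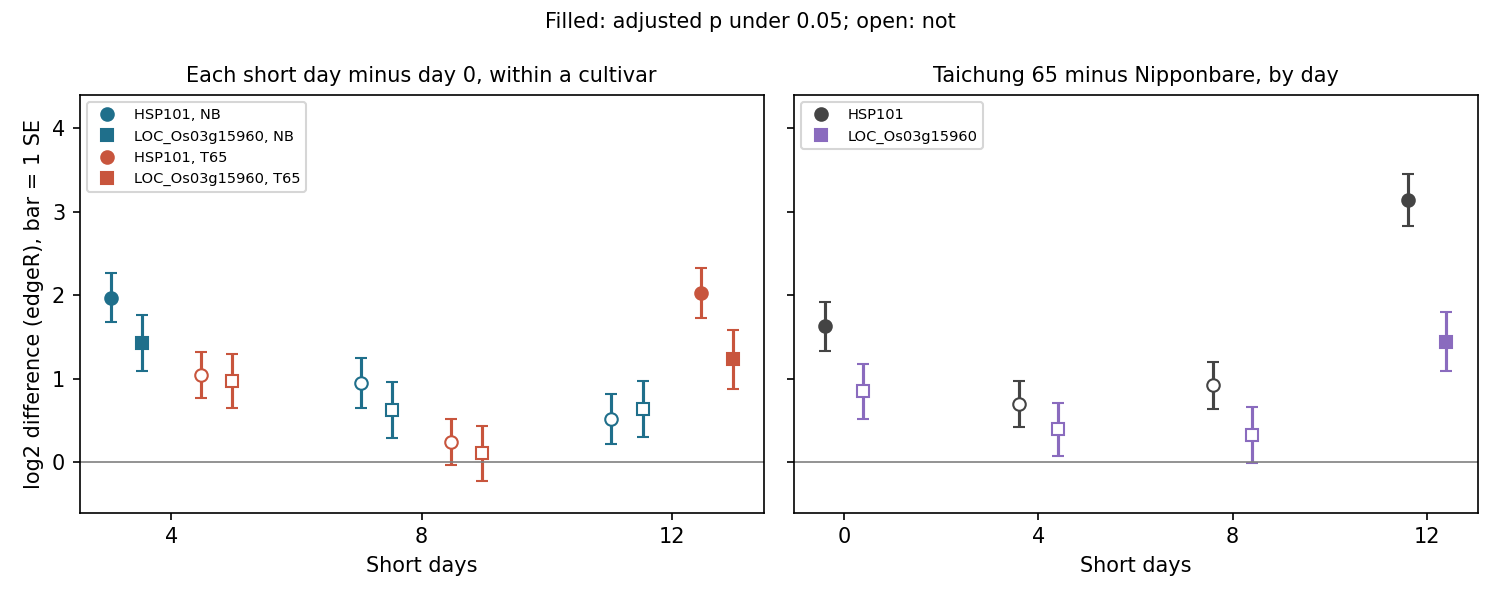
Fitted log2 differences with bars of 1 SE for HSP101 (circles) and LOC_Os03g15960 (squares), on the left for days 4, 8 and 12 against day 0 in NB (blue) and T65 (red), on the right for T65 minus NB by day (grey and purple). Filled symbols passed an adjusted p of 0.05; HSP101 passed in NB on day 4 (1.97), in T65 on day 12 (2.03), and between cultivars on days 0 (1.63) and 12 (3.14).

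Over the 23 libraries, HSP101 and LOC_Os03g15960 had a Pearson r of 0.91 and a Spearman rho of 0.87 on log2 CPM. After the mean of each group was subtracted, r was 0.80. HSFA2C had an r with HSP101 of 0.65, and 0.28 after group means were subtracted. For HSP16.9A the values were 0.65 and -0.07, and for HSP16.9B 0.66 and 0.01. The points of a correlation share their library, its depth and its dissection, so these values describe the libraries and carry no p.

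**Figure D3:**
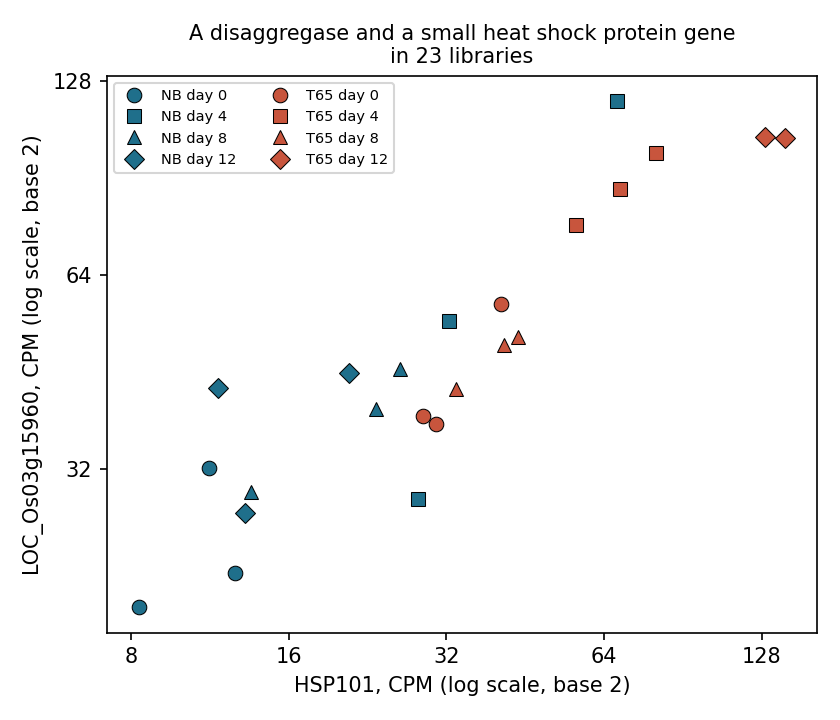
CPM of LOC_Os03g15960 against CPM of HSP101 in the 23 libraries, both on log axes of base 2, with colour for cultivar and symbol for short days. The libraries run from NB day 0 at the lower left to T65 day 12 at the right (r = 0.91), and NB day 4 replicate 1 lies at 67.9 and 119 CPM, apart from the other NB libraries.

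HSP16.9A was counted sparsely except in T65 day 12 replicate 1. In NB its 12 libraries held 2 to 21 counts each. That is 0.714, 0.925 and 0.546 CPM on day 0, 0.165, 0.524 and 0.808 on day 4, 1.10, 0.417 and 0.798 on day 8, and 0.531, 1.15 and 0.33 on day 12. No NB group stands apart from another. T65 stood at 1.13, 1.84 and 1.17 CPM on day 0, at 2.13, 3.43 and 1.84 on day 4, at 0.983, 0.728 and 1.61 on day 8, and at 10.9 and 3.58 on day 12. T65 day 12 lies above every other library, its lower value only narrowly (3.58 against 3.43 CPM in T65 day 4). T65 day 0 lies above NB day 0, and T65 day 4 lies above T65 day 0 by a narrow margin (1.843 against 1.837 CPM).

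The 2 T65 day 12 libraries disagree on the size of that rise. Replicate 1 held 249 counts of HSP16.9A (10.9 CPM, exact Poisson 95% interval 9.61 to 12.4) and replicate 2 held 31 (3.58 CPM, 2.44 to 5.09). These intervals cover counting error only, and they do not meet. For HSP101, LOC_Os03g15960 and HSFA2C the same 2 libraries lay close together, at 130 and 142, 105 and 104, and 61.2 and 59.0 CPM. NB day 4 replicate 1 showed another split, with the study's highest LOC_Os03g15960 value and its lowest HSP16.9A value, from 2 counts.

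HSP16.9A rose in T65 from day 0 to day 12 by 2.46 ± 0.48 (log2, edgeR adjusted p = 0.00567). Without T65 day 12 replicate 1 the value was 1.398 and was not called (adjusted p = 0.148), and without replicate 2 it was 3.01 (adjusted p = 0.00792). The change exceeded that of NB by 2.59 ± 0.73 (log2, interaction, adjusted p = 0.0378), a call that 11 of 18 alternatives ended, 8 of them by leaving out 1 library (log2 1.52 to 3.20). T65 was higher than NB on day 12 by 3.47 ± 0.52 (log2, adjusted p = 5.23e-05) and, without T65 replicate 1, by 2.41 (adjusted p = 0.00753). On day 4 T65 exceeded NB by 2.20 ± 0.51 (log2, adjusted p = 0.0054), the 1 call among the 7 members beside 7.82% of all genes called higher. Without NB day 4 replicate 1 the day 4 difference was 1.90 (adjusted p = 0.022), and HSP101 (log2 1.17, adjusted p = 0.00312) and LOC_Os03g15960 (log2 1.07, adjusted p = 0.00979) then passed as well. On day 0 the difference in HSP16.9A was 0.89 ± 0.50 (log2, adjusted p = 0.304).

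HSP16.9B, the neighbour of HSP16.9A in the locus numbering, held 0 to 8 counts in 22 libraries and 59 in T65 day 12 replicate 1. It passed the filter on low counts only through T65 day 12, so its calls there rest on the values that admitted it. The summed counts of the 3 libraries of each NB group were 7, 10, 7 and 9 from day 0 to day 12. T65 held 17, 18 and 8 counts on days 0, 4 and 8, and 59 and 8 on day 12. The last 2 correspond to 2.59 CPM (1.97 to 3.34) and 0.925 CPM (0.399 to 1.82), so both genes of this pair were higher in replicate 1. The fitted rise to day 12 in T65 was 2.58 ± 0.63 (log2, adjusted p = 0.0197), and the excess over NB on day 12 was 3.31 ± 0.68 (log2, adjusted p = 0.00104). Without T65 day 12 replicate 1 these were 1.57 (adjusted p = 0.273) and 2.31 (adjusted p = 0.0709), so neither held. The rise in T65 was also not called without T65 day 0 replicate 1 (log2 2.42, adjusted p = 0.0726) or replicate 3 (log2 2.37, adjusted p = 0.0718). The genes of this pair belong to 1 class of the family, and reads aligned to several places were not counted. Their sequences were not compared here, so how reads divide between them is uncertain.

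LOC_Os03g16020 and LOC_Os03g16030 were at the edge of detection and were called in none of the 15 comparisons. LOC_Os03g16020 held 3 to 19 counts per library. Its pooled level was 0.334 CPM (Poisson 95% interval 0.204 to 0.516) in NB day 4 at the lowest and 0.89 CPM (0.592 to 1.29) in T65 day 12 at the highest. LOC_Os03g16030 held 0 to 16 counts, with 0 in NB day 4 replicate 1 and in T65 day 12 replicate 2, where 3 counts would be 0.248 and 0.347 CPM. Its counts in NB were 8, 3 and 5 on day 0 and 9, 15 and 14 on day 12. Those NB groups do not overlap, with pooled levels of 0.234 CPM (0.133 to 0.379) and 0.764 CPM (0.541 to 1.05), but the comparison did not pass over all genes. With only the libraries of NB days 0 and 12 in the model it passed (log2 1.69, edgeR adjusted p = 0.0305). In T65 day 12 its libraries held 16 and 0 counts. Without the first of these, LOC_Os03g16030 was called lower in T65 than in NB on day 12 (adjusted p = 0.0473), from 1 library with 0 counts.

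**Figure D4:**
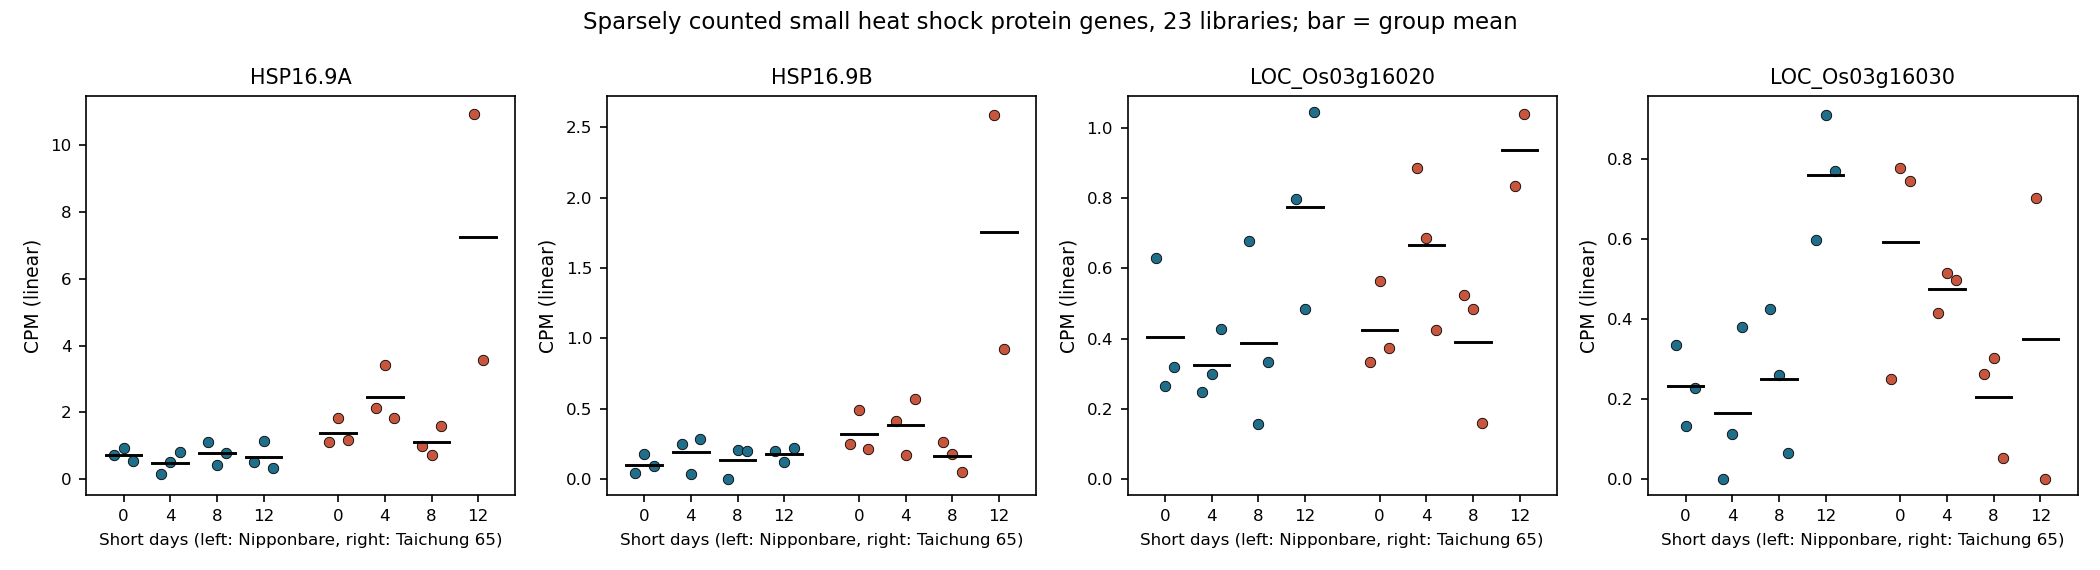
CPM of HSP16.9A, HSP16.9B, LOC_Os03g16020 and LOC_Os03g16030 (linear axes that differ between panels) in each library, with NB in blue, T65 in red and a bar at each group mean. The T65 day 12 libraries are the highest for HSP16.9A (10.9 and 3.58 CPM) and HSP16.9B (2.59 and 0.925 CPM) and differ from each other. Replicate 2 is close to T65 day 4 replicate 2 for HSP16.9A (3.43 CPM) and held 8 counts of HSP16.9B.

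Counted over the 7 genes, edgeR called 0 members in NB on day 8 (1 at an unadjusted p under 0.05, 0 with DESeq2), where 2.21% of all genes were called in either direction and 16.5% had an unadjusted p under 0.05. On day 12 it called 0 in NB (1 unadjusted, 0 with DESeq2) beside 13.2% of all genes called and 27.4% unadjusted. T65 gave 0 calls on day 4 (2 unadjusted, 0 with DESeq2) beside 0.149% of all genes called and 8.96% unadjusted. On day 8 T65 gave 0 (0 unadjusted, 0 with DESeq2) beside 1.06% called and 10.8% unadjusted. HSFA2C, HSP101, LOC_Os03g15960 and, narrowly, HSP16.9A did not overlap between T65 days 0 and 4, and none of them was called. The share of all genes that do not overlap between these groups was not computed. From day 4 to day 8 in T65 all 7 genes had lower fitted values and 4 had an unadjusted p under 0.05. In that comparison edgeR called 0 of all genes (1544 at an unadjusted p under 0.05, which is 6.76%, and 71 with DESeq2).

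The interaction between cultivar and day gave 3 of 7 on day 12 (HSP101, HSP16.9A and HSFA2C) beside 3.62% of all genes called higher. It gave 0 on day 4 (1 at an unadjusted p under 0.05, 0 with DESeq2) beside 1.83% called in either direction and 14.6% unadjusted. On day 8 the interaction gave 0 (0 unadjusted, 0 with DESeq2) beside 0.00876% called and 4.15% unadjusted. Between the cultivars on day 8 it was 0 of 7 (1 unadjusted, which was HSP101 at log2 0.92 ± 0.29, and 0 with DESeq2) beside 4.19% called and 13.5% unadjusted. The median log2 difference of the 7 genes between cultivars on day 12 was 1.45, against -0.01 over all genes. In T65 from day 0 to day 12 the medians were 1.24 and 0.00. These comparisons share control libraries: T65 day 12 enters 3 of them and each day 0 group enters several.

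Green leaf markers were followed beside the heat shock genes. Their summed CPM was 36.5 to 36.7 in NB day 0, 41.3 to 114 in NB day 4, 60.1 to 151 in NB day 12, 32.6 to 53.9 in T65 day 0, 60.2 to 115 in T65 day 4 and 62.7 to 66.4 in T65 day 12. Of the 5 leaf genes, 2 passed as higher in NB on each of days 4, 8 and 12, and between cultivars on day 12, 2 passed as lower in T65. On day 4 the median log2 change of the leaf genes was 0.86 in NB and 0.87 in T65, beside 0.18 and 0.70 for the 7 heat shock genes. The 3 meristem genes summed to 309 to 365 CPM in T65 day 12 and 341 to 364 CPM in NB day 12. Their part in the heat shock results was not tested.

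Other genes of the heat response were counted from lists of heat stress factors and chaperones, with the number called beside the number tested. Of 24 other heat stress factors 21 were tested. In NB on day 4, 3 of these rose, beside 10.0% of all genes, led by HSFA3 (log2 1.96 ± 0.21, adjusted p = 9.28e-06), a class A factor that stood at 4.599 ± 1.46 CPM on day 0 and 17.9 ± 3.82 on day 4 (SD, n = 3). In T65 by day 12, 2 rose, beside 2.90% of all genes, with HSFA3 again first at 1.89 (log2, adjusted p = 1.31e-04). Between cultivars on day 12, 7 were higher in T65 and 2 lower, beside 15.7% and 15.0% of all genes. HSFA2A, another class A factor, stood at 41.7 ± 4.71 CPM in T65 (SD, n = 2) and 8.05 ± 3.06 CPM in NB (SD, n = 3), a log2 difference of 2.38 (adjusted p = 1.69e-04).

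Small heat shock proteins outside the 7 were 12 loci, of which 5 passed the filter. In NB on day 4, 1 of 5 rose, beside 10.0% of all genes: HSP18.6, a class III protein, by 1.65 (log2, adjusted p = 0.00607). Without NB day 4 replicate 1 edgeR called 0 of the 5 (2 at an unadjusted p under 0.05). Calls over all genes, in either direction, then fell from 4631 to 2334. In T65 by day 12, 2 of 5 rose, beside 2.90% of all genes: HSP18.6 by 2.02 (log2, adjusted p = 0.00848), and HSP18.0, a class II protein, by 1.48 (log2, adjusted p = 0.0122). HSP18.0 stood at 106, 137 and 66.6 CPM on day 0 and at 268 and 306 CPM on day 12. Between cultivars on day 12, 3 of 5 were higher in T65, beside 15.7% of all genes, among them the mitochondrial HSP24.1 (log2 1.39, adjusted p = 0.0489), a call that 9 of 12 alternatives ended.

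Among 9 tested HSP70 and HSP90 loci, NB on day 4 had 3 higher and 1 lower, beside 10.0% and 10.2% of all genes. LOC_Os04g01740 of this list rose by 2.04 (log2, adjusted p = 0.00186), from 8.58 ± 0.96 to 36.3 ± 28.2 CPM (SD, n = 3). Its NB day 4 libraries stood at 68.3, 15.1 and 25.4 CPM, with replicate 1 highest as for HSP101. In T65 by day 12 that locus alone of the list passed (log2 2.29, adjusted p = 0.00302), at 141 and 162 CPM, beside 2.90% of all genes called higher. Between cultivars on day 12, 5 were higher and 1 lower in T65, beside 15.7% and 15.0% of all genes. The lower one, LOC_Os11g08470, held 0 to 2 counts in every T65 library and 3 to 59 in the NB libraries.

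The list of organelle ClpB and co-chaperone loci had 7 tested members. By day 12 in T65, 4 rose, beside 2.90% of all genes, among them CLPB-M, the mitochondrial relative of HSP101 (log2 0.97, adjusted p = 0.0168), and LOC_Os04g28420 (log2 1.73, adjusted p = 0.0163). On day 12, 5 of 7 were higher in T65 than in NB, beside 15.7% of all genes. LOC_Os04g28420 then stood at 185 and 208 CPM in T65 and at 19.9, 9.15 and 22.8 CPM in NB, a log2 difference of 3.50 (adjusted p = 6.10e-06). In NB on day 4, 1 rose and 1 fell, near the 10.0% and 10.2% of all genes. The interaction on day 12 called 4 of 7 in this list higher, beside 3.62% of all genes.

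Without T65 day 12 replicate 1, that group held 1 library, and more of all genes were called in T65 by day 12. Without replicate 2 it also held 1 library, and fewer genes were called, in these lists and over all genes. The median log2 change of the small heat shock proteins outside the 7 was then 1.38, against 1.48 with both libraries. For the HSP70 and HSP90 loci it was 0.39 against 0.45, and for the ClpB and co-chaperone loci 1.11 against 1.09. Without NB day 4 replicate 1, NB day 4 had 2 heat stress factors higher, 1 HSP70 or HSP90 locus higher and 2 lower. Over all genes 2334 were then called in either direction, against 4631 with that library. These counts by list were chosen after the data were seen.

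The list of endoplasmic reticulum chaperones holds 5 loci, of which 1, BZIP50, is by its symbol a bZIP transcription factor gene. In NB on day 4, 3 of the 5 fell, beside 10.2% of all genes, and BZIP50 was not among them. BIP1, an HSP70 of that compartment, fell from 239 ± 15.1 to 157 ± 28.0 CPM (SD, n = 3, log2 -0.60, edgeR adjusted p = 0.00289). Between cultivars on day 4, 3 of 5 were higher in T65, beside 7.82% of all genes (median log2 0.52), and from day 4 to day 8 in NB 3 of 5 rose, beside 6.76% of all genes. In NB by day 12 edgeR called 0 of 5 (0 at an unadjusted p under 0.05), with 4 of 5 fitted values above 0. In T65 by day 12, edgeR called 0 of 5 (2 at an unadjusted p under 0.05, beside 21.1% of all genes). Of the 5 jasmonate and wounding genes, 2 were tested, and JAZ8, a repressor that responds to jasmonate, fell in NB by 1.68 on day 4 and by 2.29 on day 12 on the log2 scale (adjusted p = 0.00179 and 2.15e-04).

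**Figure D5:**
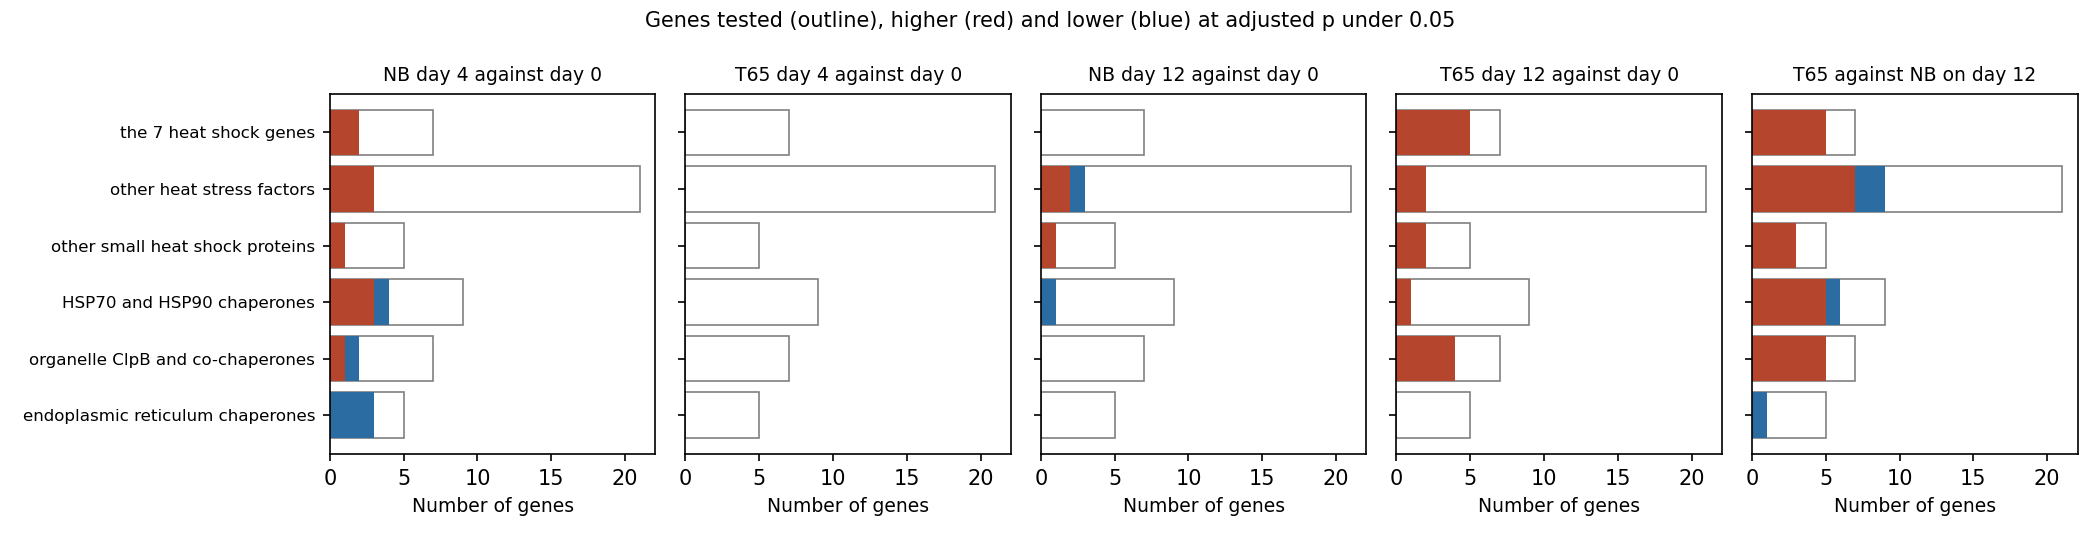
Number of genes tested (outline), called higher (red) and called lower (blue) at an adjusted p under 0.05, for the 7 heat shock genes and 5 lists of related genes in 5 comparisons. T65 on day 12 has the most red against NB (5 of 7 heat shock genes, 5 of 7 ClpB and co-chaperone loci), and T65 on day 4 has no coloured bar.

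The gene whose log2 CPM was most like that of HSP101 over the 23 libraries, outside the 7, was LOC_Os01g08190 (r = 0.95). LOC_Os03g30300 followed at 0.94, and LOC_Os04g01740 of the HSP70 and HSP90 list at 0.94. Of the 10 most alike, 2 were in the lists, the other being LOC_Os06g46900 of the co-chaperones (r = 0.93). When group means were subtracted the most alike gene was LOC_Os01g70710 (r = 0.90), and none of the 10 was in a list. LOC_Os06g46900 itself rose in NB on day 4 (log2 1.09, adjusted p = 0.00279) and in T65 by day 12 (log2 1.15, adjusted p = 0.0116).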

How the data were processed

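Shoot apices of rice were dissected with scalpels under a microscope, and total RNA was sequenced, per the labels' protocols. The authors deposited raw counts per gene for each library. The submitters' processing notes name HTSeq, TopHat2, Bowtie2 and edgeR 3.6.4 in R 3.1.0, with no order. Not given in the sources used here are the genome build, the annotation, the time of day of collection and whether strand was used. Reads from overlapping or antisense loci may therefore be mixed. Library sizes and tests leave out the 5 summary lines of the counter. As a percentage of the counts in genes, reads in no gene were 4.72 to 5.51% and ambiguous reads 2.01 to 2.44%.

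Counts of 23 libraries were tested with edgeR 4.0.16 (glmQLFit, glmQLFTest) in R 4.3.3, with TMM scaling, filterByExpr, 1 model of 8 group means with 15 residual degrees of freedom, and Benjamini-Hochberg adjustment over 22839 genes in each of 15 comparisons at 0.05. The common biological coefficient of variation was 12.7%. Correlations used log2 CPM with a prior count of 2. Alternatives were DESeq2 1.42.0, RLE scaling, no filter, only the groups compared, the replicate number as a block, a term for the share of multiply aligned reads, the 16 libraries of the higher share, and leaving out each library. The procedure was tested on simulated data. Libraries of a group were not duplicates (chi-square per gene 5.61 to 48.4).

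The 7 genes and the lists (9 lists of 81 loci) were chosen with earlier results of these data known. All 7 members are named. From the lists, genes past the threshold are named, at most 4 per list and comparison, by lowest p, and likeness covers the 10 highest correlations with HSP101. Symbols were paired with loci from recalled nomenclature, and all 50 were found in a RefSeq table of assembly ASM3414082v1 on the same chromosome. Loci without a symbol are named only by locus and list.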

Additional observations from a re-analysis of the deposited data

Results flagged for a closer look

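The changes from day 0 to day 12 differed between the cultivars for HSP16.9A (log2 2.59, T65 minus NB), HSP101 (log2 1.51) and HSFA2C (log2 1.37), each by the interaction term in edgeR (adjusted p = 0.0378, 0.0357 and 0.036). Both T65 day 12 libraries lay above T65 day 0 for all 3 genes, while NB day 12 overlapped NB day 0. Leaving out 1 of the 11 libraries ended the call in 8 cases for HSP16.9A (log2 1.52 to 3.20), 7 for HSP101 (1.36 to 1.81) and 7 for HSFA2C (1.08 to 1.67). In the 16 libraries of the higher share of multiply aligned reads the 3 calls were lost in edgeR, with HSP101 at log2 2.00. That fit left T65 day 0 with 1 library, and calls of the interaction over all genes fell as well. Groups of 2 or 3 libraries are too small to test for a single library that stands apart.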

How the results depend on the processing

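Of the values recomputed for HSFA2C, HSP101, LOC_Os03g15960, HSP16.9A and HSP16.9B in the comparisons reported, 518 kept their direction and side of the threshold, 58 lost and 25 gained a call, and 4 uncalled log2 values turned sign. Over all 7 genes and 15 comparisons 29 calls were gained, 19 of them without the filter on low counts and 3 for LOC_Os03g16030. LOC_Os03g15960 in T65 on day 8 against day 0 ran from 0 to 0.33 when 1 library was left out (lowest without T65 day 0 replicate 3), and its day 4 interaction from -0.83 to 0.20 (highest without NB day 4 replicate 1). HSFA2C in NB on day 4 ran from -0.011 (without NB day 0 replicate 3) to 0.47. The day 8 difference between cultivars of LOC_Os03g15960 was -0.16 with the replicate block. The cause was not tested.

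Without the filter on low counts the members called became 2 in NB on day 8, 3 in NB on day 12, 3 in T65 on day 4, 1 for each of the interactions on days 4 and 8, 2, 3 and 1 between cultivars on days 0, 4 and 8, 2 for NB day 8 against day 4 and 3 for T65 day 8 against day 4. Calls over all genes, in either direction, also rose in each of these comparisons. They went from 505 to 1703 in NB on day 8 and from 34 to 513 in T65 on day 4. With only the groups compared, the members called became 1 in NB on day 4, 1 in NB on day 12 and 2 in T65 on day 4. They became 2 between cultivars on day 0 and 0 for NB day 8 against day 4. Over all genes, calls then fell from 4631 to 1073 in NB on day 4. For NB day 8 against day 4 they fell from 2742 to 111, and in the others they rose. With a term for the library set, T65 day 12 kept 3 and the day 12 interaction 1. Calls over all genes fell there from 1171 to 813 and from 1555 to 794. In the 16 libraries, NB day 8 against day 4 had 0 in edgeR, and calls over all genes fell from 2742 to 697. That fit left T65 day 0 with 1 library. There T65 day 12, the day 12 interaction and the cultivars on day 0 kept no member call, and calls over all genes fell as well.

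Leaving out 1 library gave 1 to 2 in NB on day 4, 0 to 1 in NB on day 8, 1 to 3 in T65 on day 12, 0 to 2 for the day 12 interaction, 1 to 3 between cultivars on day 4 and 0 to 2 for NB day 8 against day 4. Between cultivars on day 12 it gave 5 each time, but without T65 day 12 replicate 1 these were 4 higher and 1 lower (LOC_Os03g16030 in place of HSP16.9B). Where 1 library was left, it was assumed to vary like the other groups. Calls over all genes also changed between these fits. Of 33 same-numbered pairs of libraries, 9 correlated above 0.1 after group means were subtracted. Pairs with different numbers were not compared, so whether the replicate numbers pair the libraries was not tested. The replicate block gave 2 calls in NB on day 4, 4 in T65 on day 12, 2 for the day 12 interaction and 5 between cultivars on day 12. It ended the calls of HSP16.9A in that interaction and HSP16.9B in T65 on day 12.

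Counts of a few reads limit HSP16.9B, LOC_Os03g16020 and LOC_Os03g16030.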
